A study of Mus musculus with 8 samples.

Results

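Levels of 9 gene products that work beside Mediator at enhancers were followed in RNA-seq libraries of the mouse incisor. They were the acetyltransferase genes *Ep300* and *Crebbp*, the BET reader genes *Brd2* and *Brd3*, the cohesin genes *Nipbl*, *Smc1a*, *Smc3* and *Rad21*, and the architectural factor gene *Ctcf*. The set was fixed by name, without a rule on measured values, but earlier results of these data were known when it was chosen. All 9 were found among the 23358 rows of the deposited table, and all 9 belonged to the 14148 genes that were tested. The tissues came from the cervical loop, where the incisor grows, in C57BL/6 mice aged 4 weeks. CLH is the head of the loop, in which the stem cells of the dental epithelium reside. CLT is its tail, which includes their progenies. The libraries labelled *Med1* cKO came from *Med1* fl/fl mice in which Cre recombinase, driven by the *Krt14* promoter, deletes exons 8 to 10 of *Med1* in epithelial cells, so cells that do not use this promoter keep the gene. Ctrl libraries came from littermates without Cre. Males and females were not separated, tissues of several mice were pooled for a library, and each of the 4 groups had 2 libraries. The animals for RNA-seq came from 2 litters, but no source used here says which library came from which litter, and the p-values measure only the spread between these pools.

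Mediator is a large complex that passes signals from transcription factors at enhancers to RNA polymerase II, and MED1 is one of its subunits. p300 and CBP, the products of *Ep300* and *Crebbp*, acetylate histones at active enhancers, and the BET proteins BRD2 and BRD3 bind acetylated histones through their bromodomains. Cohesin is a ring of SMC1A, SMC3 and RAD21 that NIPBL loads onto DNA, where it extrudes loops until it meets CTCF. The ring also holds sister chromatids together until they separate in mitosis.

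The libraries held 22330512 to 28651106 reads on genes, and each value of the 9 genes rested on 778 to 10871 reads. RPKM are reads scaled to the length of the gene and to the total of the library. The 6 dental epithelium markers were detected in every library. In cKO CLT, 5 of them were higher and 1 was lower without overlap (summed RPKM of 1358 and 857 in the Ctrl CLT pair, 1738 and 1964 in that of cKO). The 2 Ctrl CLT libraries stood apart from each other: 34.6% of tested genes differed between them by more than 1.5-fold, against 0.763% to 1.12% in the other groups. Summed RPKM of the 7 ameloblast markers was 84580 and 37390 in Ctrl CLT libraries 1 and 2, and 15.8 to 19.7 in cKO CLT, with all 7 lower in cKO CLT without overlap. The 6 skeletal muscle markers summed to 658 and 49.7 in the same Ctrl libraries and to 1807 to 1987 in cKO CLT, and the 6 hair and cornified markers to 1643 and 7.84 and to 4947 to 5493. All of these 12 markers were higher in cKO CLT without overlap, and so were 5 of 5 melanocyte markers (128.5 and 9.89 in Ctrl, 394 to 396 in cKO) and 10 of 10 proliferation markers (94.0 and 142 in Ctrl, 199 to 207 in cKO). Of 6 mesenchyme and bone markers, 4 were lower in cKO CLT and 1 was higher, with sums of 3324 to 3738 in Ctrl and 1889 to 2150 in cKO. Of 6 leukocyte markers, 5 were lower and 1 was higher (31.3 and 51.7 in Ctrl, 25.5 to 29.6 in cKO). Of 4 erythroid markers, 3 were lower (194 to 231 in Ctrl, 127 to 133 in cKO), and of 4 endothelial markers 1 was higher and 1 lower. These marker counts are of pairs without overlap, which 72.2% of all tested genes had between cKO and Ctrl in CLT. *Mlana*, *Tyrp1*, *Ibsp* and *Myh4* were at 0 in at least 1 library. The part of this tissue makeup in the values below was not tested, and in bulk tissue fewer cells of a type and less RNA per cell cannot be told apart. *Med1* itself had an RPKM of 7.71 and 9.12 in the Ctrl CLH pair, 7.10 and 7.04 in the cKO CLH pair, 4.83 and 8.71 in the Ctrl CLT pair and 9.15 and 8.96 in the cKO CLT pair. The last pair lay above Ctrl, against the label. The value sums all exons, deleted and kept, in recombined and other cells, and so is a weak check of the deletion; every direction below rests on the labels.

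*Brd2* and *Rad21* were the most abundant of the 9 transcripts per length, and *Crebbp* was the least. Averaged over the 8 libraries, *Brd2* had an RPKM of 55.3 and *Rad21* of 49.1, above 92.3% and 91.0% of tested genes, while *Crebbp* had 4.75, above 31.0%. In CLH the order of levels was *Brd2*, *Rad21*, *Smc1a*, *Ctcf*, *Smc3*, *Brd3*, *Ep300*, *Nipbl* and *Crebbp* in both genotypes, and the 2 libraries of each gene did not overlap with those of its neighbour in the order. In Ctrl CLT the neighbours *Brd2* and *Rad21* overlapped, as did each neighbouring pair from *Ctcf* through *Smc3*, *Brd3* and *Nipbl* to *Ep300*. *Rad21* moved above *Brd2* in cKO CLT, where its 2 libraries had 50.6 and 49.3 RPKM and those of *Brd2* had 46.9 and 47.1.

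**Figure D1:**
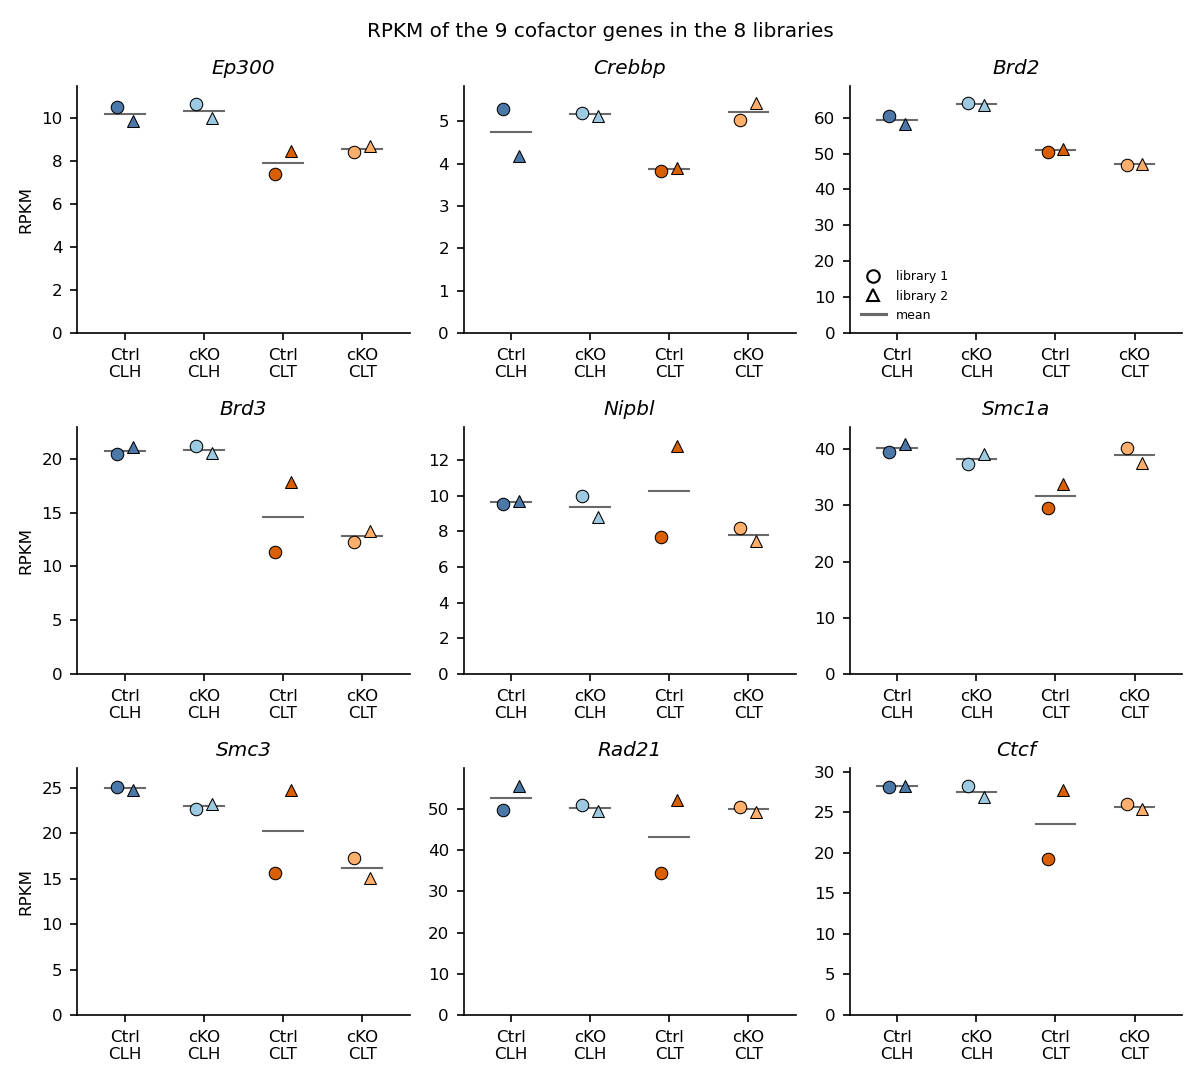
Each panel plots the RPKM of 1 gene (y axis, from 0) in the 4 groups, with a circle for library 1, a triangle for library 2 and a line for their mean. The widest gaps between the 2 libraries of a group are in Ctrl CLT, where *Nipbl*, *Smc3*, *Brd3*, *Rad21* and *Ctcf* are 1.44 to 1.66 times as high in library 2 as in library 1.

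Among the acetyltransferases, *Ep300* was lower in the tail than in the head, and *Crebbp* had its highest tail values in the cKO. *Ep300* (chr15:81586214-81652077, mm10) encodes p300, the acetyltransferase whose mark at lysine 27 of histone H3 is used to map active enhancers. Its RPKM was 10.5 and 9.83 in the Ctrl CLH pair, 10.7 and 9.98 in the cKO CLH pair, 7.38 and 8.45 in the Ctrl CLT pair and 8.42 and 8.67 in the cKO CLT pair. All 4 CLT libraries lay below all 4 CLH libraries, whereas the genotypes overlapped in both regions. The difference between CLT and CLH was -0.25 ± 0.09 (log2 fold change ± SE on log2(RPKM + 1), limma adjusted p = 0.040) in cKO and -0.33 ± 0.15 (adjusted p = 0.44) in Ctrl. The cKO call was lost with any 1 of its 4 libraries left out (limma adjusted p from 0.071 to 0.17), and with median-of-ratios scaling the value moved to -0.04 (adjusted p = 0.69).

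*Crebbp* (chr16:4084048-4213404) encodes CBP, the close relative of p300. Its RPKM was 5.30 and 4.18 in the Ctrl CLH pair, 5.21 and 5.13 in the cKO CLH pair, 3.83 and 3.90 in the Ctrl CLT pair and 5.04 and 5.43 in the cKO CLT pair. Both cKO CLT libraries were above both Ctrl CLT libraries and near those of CLH. The difference between cKO and Ctrl in CLT was 0.36 ± 0.17, a 1.28-fold ratio of RPKM + 1 with a 95% confidence interval of 0.933 to 1.76. It did not pass the threshold (limma adjusted p = 0.20). With a pseudocount of 0.1 the log2 difference was 0.43.

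Of the BET readers, *Brd2* was lower in the tail of both genotypes, and from head to tail in cKO *Brd3* fell by 0.66 on the log2 scale, the largest change that passed the test among the 9 genes. *Brd2* (chr17:34112019-34122607) encodes a reader of acetylated histone H4. Its RPKM was 60.5 and 58.2 in the Ctrl CLH pair, 64.1 and 63.5 in the cKO CLH pair, 50.6 and 51.4 in the Ctrl CLT pair and 46.9 and 47.1 in the cKO CLT pair. The 4 groups did not overlap, with cKO above Ctrl in CLH and below it in CLT. From CLH to CLT in cKO, *Brd2* fell by 0.43 ± 0.08 (limma adjusted p = 0.0012), and the same difference in Ctrl was -0.22 ± 0.11 (adjusted p = 0.47). In the annotation, 765 exon bases of *Brd2* also belong to genes on the opposite strand, and without a stated strand setting their reads cannot be told apart.

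*Brd3* (chr2:27445581-27475673) encodes the BET protein known for binding acetylated transcription factors such as GATA1. Its RPKM was 20.4 and 21.1 in the Ctrl CLH pair, 21.2 and 20.6 in the cKO CLH pair, 11.3 and 17.9 in the Ctrl CLT pair and 12.3 and 13.3 in the cKO CLT pair. The cKO CLT pair lay between the 2 Ctrl CLT libraries, nearer to library 1, and all 4 CLT libraries were below CLH. The fall from CLH to CLT in cKO was 0.632-fold (95% confidence interval 0.548 to 0.728, limma adjusted p = 0.00019), while the same ratio in Ctrl was 0.702 (0.433 to 1.14, adjusted p = 0.45).

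The cohesin genes split from head to tail in cKO, where 45.1% of all tested genes passed as lower. *Smc3* fell from CLH to CLT there, whereas *Rad21* and *Smc1a* had tail values near those of the head. In Ctrl the log2 difference was -0.32 for *Smc3*, -0.34 for *Smc1a* and -0.30 for *Rad21*, and none passed. The interaction of *Smc3* was -0.16 (limma adjusted p = 0.71). *Nipbl* had its highest and its lowest values within CLT. *Smc3* (chr19:53600396-53645831) encodes the ring subunit whose acetylation locks cohesin on chromatin. Its RPKM was 25.1 and 24.7 in the Ctrl CLH pair, 22.7 and 23.2 in the cKO CLH pair, 15.7 and 24.8 in the Ctrl CLT pair and 17.3 and 15.0 in the cKO CLT pair. Library 2 of Ctrl CLT was at the level of CLH, and library 1 was at that of cKO CLT. From CLH to CLT in cKO it fell by 0.48 ± 0.10 (limma adjusted p = 0.0018), and the difference in Ctrl was -0.32 ± 0.25 (adjusted p = 0.57). Within CLH the cKO pair was below the Ctrl pair, with a difference of -0.115 ± 0.056 (adjusted p = 0.71).

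*Smc1a* (chrX:152016428-152061973) encodes the partner that meets SMC3 at the hinge of the ring. Its RPKM was 39.5 and 40.9 in the Ctrl CLH pair, 37.3 and 39.2 in the cKO CLH pair, 29.6 and 33.8 in the Ctrl CLT pair and 40.2 and 37.6 in the cKO CLT pair. The Ctrl CLT libraries were the lowest and did not overlap with any other group. The difference between cKO and Ctrl in CLT was 0.29 ± 0.15, a ratio of 1.22 (95% confidence interval 0.918 to 1.63, limma adjusted p = 0.23).

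*Rad21* (chr15:51962604-51991760) encodes the kleisin that closes the ring and that separase cuts in mitosis. Its RPKM was 49.9 and 55.5 in the Ctrl CLH pair, 50.9 and 49.7 in the cKO CLH pair, 34.4 and 52.3 in the Ctrl CLT pair and 50.6 and 49.3 in the cKO CLT pair. A single library, Ctrl CLT library 1, was low, and the other 7 lay between 49.3 and 55.5. *Nipbl* (chr15:8291225-8444463) encodes the cohesin loader, whose loss of a copy causes Cornelia de Lange syndrome in humans. Its RPKM was 9.54 and 9.72 in the Ctrl CLH pair, 9.95 and 8.82 in the cKO CLH pair, 7.69 and 12.8 in the Ctrl CLT pair and 8.18 and 7.44 in the cKO CLT pair. Its highest value of all was in Ctrl CLT library 2, and the cKO CLT pair was around that of library 1. With limma as deposited, none of the 5 comparisons passed the threshold for *Rad21* or *Nipbl* (lowest adjusted p of 0.45 for *Rad21* and of 0.068 for *Nipbl*, the latter between CLT and CLH in cKO, where voom and a replicate block did call it).

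The sequences before the transcription starts of *Smc3*, *Brd3* and *Smc1a* are shown because *Smc3* and *Brd3* varied alike over the libraries while *Smc1a*, the ring partner of *Smc3*, did not follow them. RefSeq start sites (assembly GRCm38.p6, the same build as mm10) were matched for 7 of the 9 genes, and *Nipbl* and *Rad21* had no entry. The 250 bases before the start are given on the strand of the gene, with matches to GGGCGG, a motif of SP and KLF factors, and CCAAT, the CCAAT box, in capitals on either strand. The windows are chr19:53600146-53600395 on the plus strand for *Smc3*, chr2:27475399-27475648 on the minus strand for *Brd3* and chrX:152016178-152016427 on the plus strand for *Smc1a*. That of *Brd3* lies inside the gene span given above, because its RefSeq start is downstream of the start of that span. The other windows end just before the spans of their genes.
*Smc3*: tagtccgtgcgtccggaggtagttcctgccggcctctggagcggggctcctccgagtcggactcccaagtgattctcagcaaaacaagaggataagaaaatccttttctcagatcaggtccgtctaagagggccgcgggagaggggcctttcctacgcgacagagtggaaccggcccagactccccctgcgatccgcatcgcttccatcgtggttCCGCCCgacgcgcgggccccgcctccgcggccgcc
*Brd3*: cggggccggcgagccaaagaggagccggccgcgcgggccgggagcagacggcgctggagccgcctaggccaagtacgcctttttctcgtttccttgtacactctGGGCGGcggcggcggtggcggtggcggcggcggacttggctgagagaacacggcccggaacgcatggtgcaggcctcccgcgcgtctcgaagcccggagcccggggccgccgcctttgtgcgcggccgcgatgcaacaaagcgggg
*Smc1a*: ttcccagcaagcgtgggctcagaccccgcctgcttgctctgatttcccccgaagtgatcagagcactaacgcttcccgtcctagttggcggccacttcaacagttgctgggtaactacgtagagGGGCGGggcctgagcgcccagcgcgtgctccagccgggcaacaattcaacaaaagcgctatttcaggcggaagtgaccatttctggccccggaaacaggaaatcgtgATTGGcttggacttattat
All 3 windows held 1 match to GGGCGG, which 32.7% of 32851 such windows hold, and *Smc1a* also held 1 match to CCAAT, found in 33.8%. Matches to CCGGAAG, an ETS motif in 6.91% of windows, and TGACG, the core of a CREB site in 17.8%, were not in them. The windows had 26 CpG for *Smc3*, 37 for *Brd3* and 16 for *Smc1a*, more than 90.4%, 97.8% and 74.6% of all windows.

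*Ctcf* (chr8:105636538-105682922) encodes the zinc finger protein at which loop extrusion by cohesin stops. Its RPKM was 28.2 and 28.3 in the Ctrl CLH pair, 28.2 and 26.9 in the cKO CLH pair, 19.2 and 27.8 in the Ctrl CLT pair and 26.0 and 25.4 in the cKO CLT pair. As for *Rad21*, Ctrl CLT library 1 was the low one, and the other 7 libraries lay between 25.4 and 28.3. Of its exon bases, 484 are shared with genes on the opposite strand.

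Within CLT, loss of *Med1* was compared with Ctrl to ask whether these partners change when Mediator lacks MED1. None of the 9 genes passed the threshold with limma, where 1.75% of all tested genes did, and the median log2 fold change of the 9 was 0.10 against -0.009 for all genes. At an unadjusted p under 0.05 the count was also 0, against 36.2% of all genes, and voom on the recovered reads called 0. The groups did not overlap for 3 of the 9, with *Crebbp* and *Smc1a* higher in cKO and *Brd2* lower, where 72.2% of all genes did not overlap. The intervals were wide: 0.804-fold for *Nipbl* (0.470 to 1.38), 0.826-fold for *Smc3* (0.494 to 1.38), 0.905-fold for *Brd3* (0.550 to 1.49), 0.923-fold for *Brd2* (0.721 to 1.18), 1.07-fold for *Ep300* (0.786 to 1.46), 1.11-fold for *Ctcf* (0.722 to 1.69) and 1.17-fold for *Rad21* (0.734 to 1.87). Differences of these sizes were thus not detectable with this spread.

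**Figure D2:**
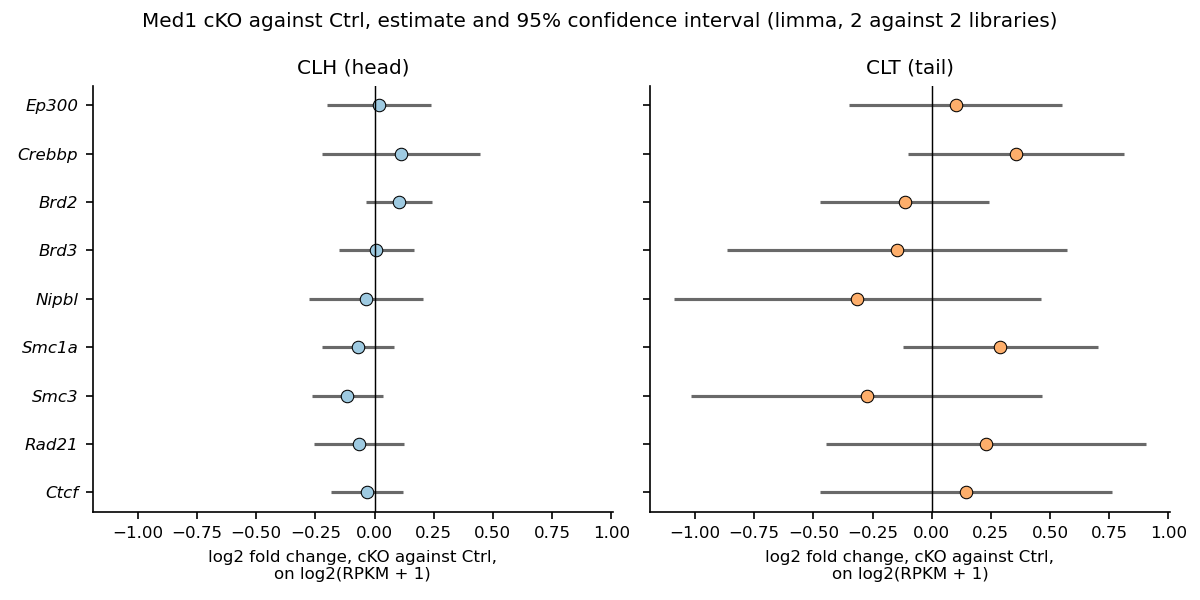
Points give the log2 fold change of cKO against Ctrl on log2(RPKM + 1) for each gene (y axis) in CLH (left) and CLT (right), and lines its 95% confidence interval from limma with 2 against 2 libraries. Every interval spans 0, and those of CLT are wider than those of CLH.

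The Ctrl CLT libraries decided which genes would be called. Without Ctrl CLT library 1, 4 of the 9 passed (*Crebbp* at 0.35 higher in cKO; *Nipbl* at -0.65, *Smc3* at -0.59 and *Brd3* at -0.45 lower), where 69.5% of all genes passed. Without Ctrl CLT library 2, 3 passed and all were higher in cKO (*Rad21* at 0.53, *Ctcf* at 0.40 and *Smc1a* at 0.38), where 52.1% of all genes passed. No gene of the 9 passed in both, and 5 changed sign between them (*Brd3*, *Nipbl*, *Smc3*, *Rad21* and *Ctcf*). *Crebbp* and *Brd2* had nearly the same value either way, since their 2 Ctrl libraries differed by 1.02-fold. These fits have 1 Ctrl library, which is assumed to vary like the cKO pair. Library 1 is the one with more reads from ameloblast, muscle, hair and melanocyte markers, given above.

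**Figure D3:**
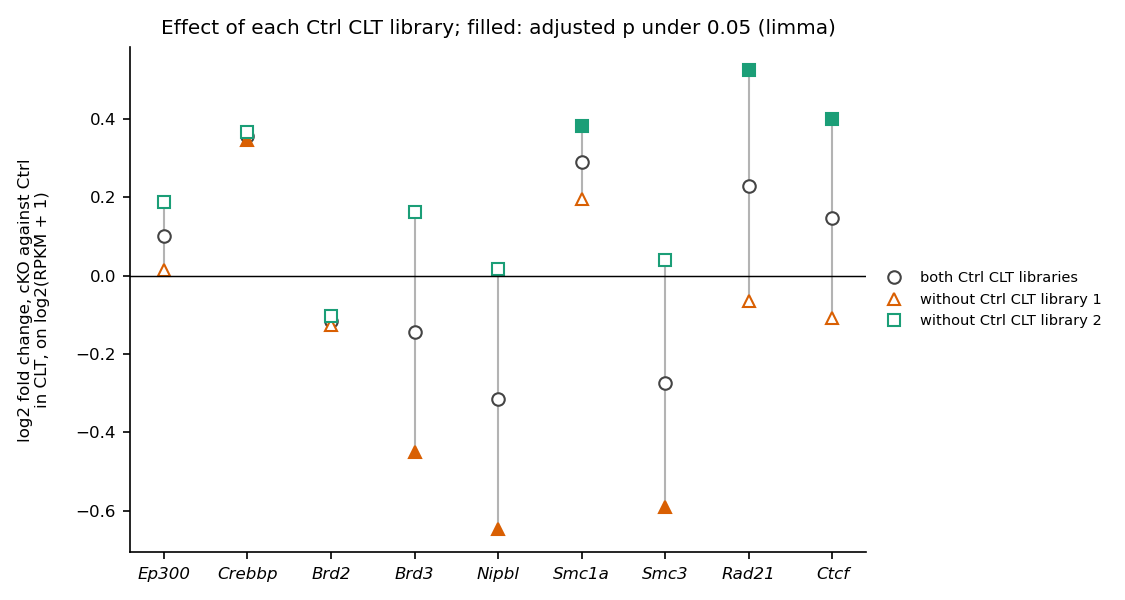
The log2 fold change of cKO against Ctrl in CLT on log2(RPKM + 1) is plotted for each gene with both Ctrl CLT libraries (circles), without library 1 (triangles) and without library 2 (squares), and filled marks have a limma adjusted p under 0.05. *Nipbl*, *Smc3* and *Brd3* lie low without library 1, *Rad21* and *Ctcf* lie high without library 2, and *Crebbp* and *Brd2* stay in place.

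In CLH the 9 genes hardly differed between the genotypes. None passed the threshold with limma or voom, as was true of 0.0% of all tested genes, and none had an unadjusted p under 0.05, against 7.26% of all genes. The largest log2 difference was -0.115 for *Smc3*, followed by 0.110 for *Crebbp* and 0.10 for *Brd2*, and the median of the 9 was -0.03 against -0.005 for all genes. Without overlap were 3 of the 9 (*Brd2* higher in cKO, *Smc1a* and *Smc3* lower), against 38.7% of all genes. The intervals here were narrower: *Brd3* differed by 1.01-fold (0.901 to 1.12), *Ctcf* by 0.977-fold (0.880 to 1.09) and *Brd2* by 1.07-fold (0.975 to 1.18), while *Crebbp* had the widest, 1.08-fold (0.856 to 1.36).

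Whether the cKO effect differed between the regions was tested with an interaction term in a fit of all 8 libraries. This fit assumes 1 spread per gene for all groups, but the Ctrl CLT pair spread more than the others. Over tested genes, the median log2 difference between the libraries of a pair was 0.404 in Ctrl CLT and 0.0922 to 0.113 elsewhere. SE and p-values of the interaction can thus understate the uncertainty from that pair. None of the 9 passed with limma or voom, where 17.6% of all tested genes did. *Smc1a* alone had an unadjusted p under 0.05, against 38.0% of all genes, with an effect in CLT that exceeded that in CLH by 0.36 ± 0.14 (adjusted p = 0.12). *Brd2* moved the other way, by -0.22 ± 0.11 (adjusted p = 0.18). Both genes had cKO and Ctrl pairs that did not overlap in either region and that were ordered oppositely in CLH and CLT. Of all tested genes, 38.7% did not overlap in CLH and 72.2% in CLT, and the share ordered oppositely was not computed.

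Region was then compared within each genotype, CLT against CLH. In Ctrl, 8 of the 9 genes had lower means in CLT, with a median of -0.30 against -0.13 for all tested genes, and *Nipbl* was the exception (0.04). None passed the threshold with limma or voom, as against 0.00707% of all genes, and 0 had an unadjusted p under 0.05, against 13.1%. For 6 genes (*Ep300*, *Crebbp*, *Brd2*, *Brd3*, *Smc1a* and *Ctcf*) both CLT libraries were below both CLH libraries, where 52.0% of all genes did not overlap. Without Ctrl CLT library 2, 6 of the 9 passed as lower in CLT (*Brd3*, *Ctcf*, *Ep300*, *Rad21*, *Smc1a* and *Smc3*), against 53.3% of all genes called, and without Ctrl CLT library 1 none did.

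In cKO, 4 of the 9 genes fell from CLH to CLT (*Brd3*, *Smc3*, *Brd2* and *Ep300*, by 0.66, 0.48, 0.43 and 0.25 on the log2 scale) and none rose, where 74.0% of all tested genes passed and 45.1% passed as lower. The makeup of the tissue differed in the same comparison: from the cKO CLH pair to the cKO CLT pair, summed RPKM went from 13660 and 14320 to 19.7 and 15.8 for ameloblast markers, from 27.5 and 30.7 to 1807 and 1987 for skeletal muscle markers, from 16.0 and 12.2 to 4947 and 5493 for hair and cornified markers, and from 3.602 and 3.692 to 394 and 396 for melanocyte markers. Its part in these differences was not tested. *Nipbl* was at -0.24 ± 0.10 (limma adjusted p = 0.068) and was called lower with voom (adjusted p = 0.023) and with the replicate number as a block (adjusted p = 0.015), while *Ctcf* was at -0.10 ± 0.08 (limma adjusted p = 0.31). *Crebbp*, *Smc1a* and *Rad21* lay close to 0, with ratios of 1.01 (95% confidence interval 0.863 to 1.18), 1.02 (0.887 to 1.16) and 0.993 (0.873 to 1.13). Both CLT libraries were below both CLH libraries for 6 of the 9, where 86.7% of all genes did not overlap. With any 1 of the 4 libraries left out, the number called was 3. The median of all genes was -0.18 and that of the 9 was -0.24. Median-of-ratios scaling moved the median of all genes to 0.02: *Brd2*, *Brd3* and *Smc3* still fell, *Ep300* no longer passed, and *Rad21* (0.21, adjusted p = 0.043) and *Smc1a* (0.24, adjusted p = 0.031) were called higher in CLT, as 37.2% of all genes were. Of all calls, 39.0% were higher in CLT as deposited and 51.9% after this scaling.

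Ratios of 2 of these genes within a library do not depend on scaling between libraries. The *Smc3* to *Smc1a* ratio was 0.636 and 0.605 in the Ctrl CLH pair, 0.608 and 0.592 in the cKO CLH pair, 0.529 and 0.733 in the Ctrl CLT pair and 0.430 and 0.400 in the cKO CLT pair. The cKO CLT pair was below the other 6 libraries. The *Crebbp* to *Ep300* ratio ran the other way, with 0.598 and 0.626 in cKO CLT against 0.519 and 0.461 in Ctrl CLT, 0.489 and 0.514 in cKO CLH, and 0.504 and 0.425 in Ctrl CLH. *Nipbl* to *Smc1a* was 0.204 and 0.198 in cKO CLT and 0.225 to 0.379 elsewhere, with the highest value in Ctrl CLT library 2. The *Rad21* to *Smc1a* ratio overlapped between all groups compared (1.16 to 1.55). *Ctcf* to *Rad21* had a narrow range of 0.510 to 0.565 in all libraries, with cKO CLT (0.513 and 0.515) just below Ctrl CLT (0.559 and 0.531). *Brd3* to *Brd2* was 0.224 and 0.348 in Ctrl CLT, a pair that enclosed the 0.262 and 0.283 of cKO CLT, and 0.324 to 0.362 in CLH. With 2 libraries a group, exact permutation has a smallest p of 0.33, so the ratios are given without a test.

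**Figure D4:**
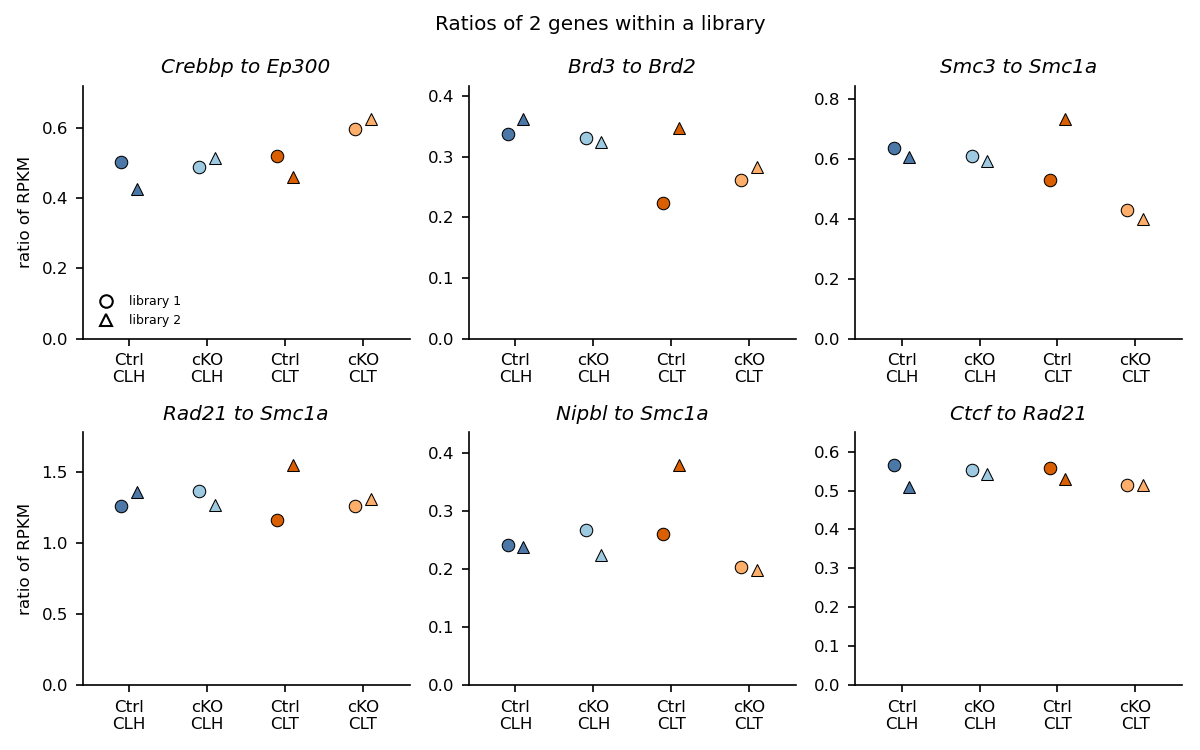
Each panel plots the ratio of the RPKM of 2 genes within a library (y axis, from 0) by group, with a circle for library 1 and a triangle for library 2. In cKO CLT the *Smc3* to *Smc1a* ratio is lowest (0.400 and 0.430) and the *Crebbp* to *Ep300* ratio highest (0.598 and 0.626), and *Ctcf* to *Rad21* stays between 0.510 and 0.565 in all libraries.

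The likeness of the 9 profiles over the 8 libraries was described by Pearson's r of log2(RPKM + 1). *Ctcf* and *Rad21* were the most alike (0.962), followed by *Smc3* and *Brd3* (0.918), and *Nipbl* and *Crebbp* were the least alike (-0.351). These values share libraries in groups of 2, and Ctrl CLT library 1 was the lowest of the 8 for 6 of the 9 genes. Outside the lists, the genes most like the mean of the 9 among 7082 searched were *Eif4b* (0.994), *Pcyt1a* (0.993), *Tbl2* (0.992), *Bcor* (0.991) and *Qrich1* (0.990). *Eif4b*, a translation initiation factor gene, had an RPKM of 128 to 132 in CLH, 86.0 and 121 in the Ctrl CLT pair and 110 and 111 in that of cKO, so that Ctrl CLT library 1 was again lowest.

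Partners of the 9 genes were followed in 5 further lists of 46 genes, all of which were tested. In CLT, 0 of the 46 passed between cKO and Ctrl with limma or voom, and 11 had an unadjusted p under 0.05, where 36.2% of all tested genes did. There were 32 higher and 14 lower in cKO, with a median of 0.15. The interaction was past the threshold for 6, where 17.6% of all tested genes passed: the cKO effect in CLT was above that in CLH for *Espl1* (by 0.96), *Cdca5* (0.91), *Rcor1* (0.84), *Zfp143* (0.81) and *Brd1* (0.52) and below it for *Hdac8* (-0.61). With the replicate number as a block 2 were called, *Espl1* and *Rcor1*. *Hdac8* was not called with voom, nor was *Brd1* with median-of-ratios scaling. The interaction fit assumes 1 spread for all groups, so these calls can understate the uncertainty from the Ctrl CLT pair. In CLH, 0 of the 46 passed with limma or voom and 3 had an unadjusted p under 0.05, against 7.26% of all genes, with a median of -0.04. Without Ctrl CLT library 1, 14 of the 46 passed in CLT as higher in cKO and 9 as lower, where 69.5% of all genes passed, and without library 2, 15 and 2, where 52.1% passed. Called in the same direction in both were *Brd1*, *Cdca5*, *Espl1*, *Kat2a*, *Kmt2d*, *Mau2*, *Ncoa3*, *Rcor1*, *Wapl* and *Zfp143* as higher and *Brd9* and *Hdac8* as lower. Each of these fits has 1 Ctrl library, and the share of all tested genes called in both was not computed. Being called in both is therefore not a result about these genes.

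The 12 further cohesin genes included *Espl1*, which had the widest difference of the 46 between cKO and Ctrl in CLT. It encodes separase, the protease that opens the ring at anaphase, and had an RPKM of 4.33 and 4.02 in the Ctrl CLH pair, 4.72 and 4.31 in the cKO CLH pair, 2.10 and 2.48 in the Ctrl CLT pair and 5.71 and 5.86 in the cKO CLT pair. Its difference between cKO and Ctrl in CLT was 1.05 (adjusted p = 0.064). *Cdca5*, which encodes sororin, the protector of cohesion after replication, had 3.86 and 4.10 in the Ctrl CLT pair and 6.49 and 7.94 in that of cKO (0.72, adjusted p = 0.091). For both genes the cKO pair was above the Ctrl pair, where 72.2% of all tested genes had pairs without overlap. *Esco2* (1.69 and 4.53 in Ctrl CLT, 3.80 and 4.11 in cKO CLT) and *Sgo1* (1.45 and 3.91, 4.92 and 3.86) of this list overlapped. All 10 proliferation markers were also higher in cKO CLT, and a link to them was not tested.
*Wapl*, which encodes the factor that releases cohesin from DNA, rose from CLH to CLT in cKO by 0.98 (limma adjusted p = 5.6e-05). It had an RPKM of 12.1 and 10.03 in cKO CLH and of 23.6 and 21.8 in cKO CLT, and the Ctrl CLT values of 14.5 and 15.4 lay between. *Pds5b*, a regulator that binds the ring, fell by 1.39 in the same comparison, with 13.0 and 11.8 in cKO CLH and 4.40 and 3.80 in cKO CLT. Its Ctrl CLT libraries lay far apart, with 5.13 in library 1, above the cKO CLT pair, and 12.7 in library 2, between the cKO CLH libraries. *Stag1*, which encodes an accessory subunit of the ring, fell by 0.78 (9.46 and 7.997 in the cKO CLT pair, 9.37 and 17.9 in that of Ctrl), and *Hdac8*, the SMC3 deacetylase gene, fell by 0.52. *Mau2*, the loader partner of *Nipbl*, rose by 0.26, and *Espl1* rose by 0.30. Of 12, 3 thus rose and 3 fell from CLH to CLT in cKO, where 74.0% of all tested genes passed and 45.1% passed as lower. With median-of-ratios scaling 4 rose and 3 fell. Of the cohesin subunits known from germ cells, *Smc1b* and *Rad21l* had an RPKM of at most 0.09 and were not tested, whereas *Rec8* was measured at 11.7 to 13.5 in CLH, at 6.84 and 6.94 in the tail of Ctrl and at 2.33 and 2.55 in the tail of cKO. From CLH to CLT in cKO it fell by 2.07. Its interaction was -1.34 (limma adjusted p = 0.0062), in the fit that assumes 1 spread for all groups. *Stag3* fell by 0.82 from CLH to CLT in cKO.

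The enzymes and readers around acetylation were divided in the same comparison. Of 10 further acetyltransferase and coactivator genes, *Kat2b* and *Ncoa3* rose from CLH to CLT in cKO (0.69 and 0.32) and *Kat2a* and *Kat6b* fell (-0.28 and -0.44). In CLT their cKO against Ctrl differences ran from -0.02 for *Kat2b* to 0.50 for *Ncoa3*, which helps nuclear receptors recruit p300. Of 8 deacetylase and corepressor genes, *Rcor1*, a scaffold of the LSD1 complex, rose by 0.84, with 13.2 and 11.7 in cKO CLH and 23.2 and 22.6 in cKO CLT, while *Hdac2*, *Sin3a* and *Ncor1* fell by 0.53, 0.28 and 0.27. In CLT the cKO against Ctrl differences of this list ran from -0.50 (*Hdac2*) to 0.86 (*Rcor1*). Of 9 bromodomain and P-TEFb genes, *Brd1* and *Cdk9*, the kinase that releases paused polymerase, rose by 0.59 and 0.29. *Larp7*, *Brd9* and *Brd8* fell by 0.81, 0.81 and 0.40, and the CLT differences between cKO and Ctrl ran from -0.47 (*Larp7*) to 0.64 (*Brd1*). Of 7 genes of enhancer H3K4 methylation and looping, *Zfp143* and *Kmt2d* rose by 0.60 and 0.29 and *Kmt2c* fell by 0.44. *Kmt2d* and *Kmt2c*, which encode related H3K4 methyltransferases of enhancers, were also the highest (0.71) and the lowest (-0.23) of that list between cKO and Ctrl in CLT. Over the 46 genes, 10 rose and 13 fell from CLH to CLT in cKO, where 74.0% of all genes passed and 45.1% passed as lower, with a median of -0.03, and after median-of-ratios scaling 18 rose and 7 fell. In Ctrl, 40 of the 46 were lower in CLT (median -0.21), and 0 passed with limma or voom, with 6 at an unadjusted p under 0.05, against 13.1% of all genes.

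**Figure D5:**
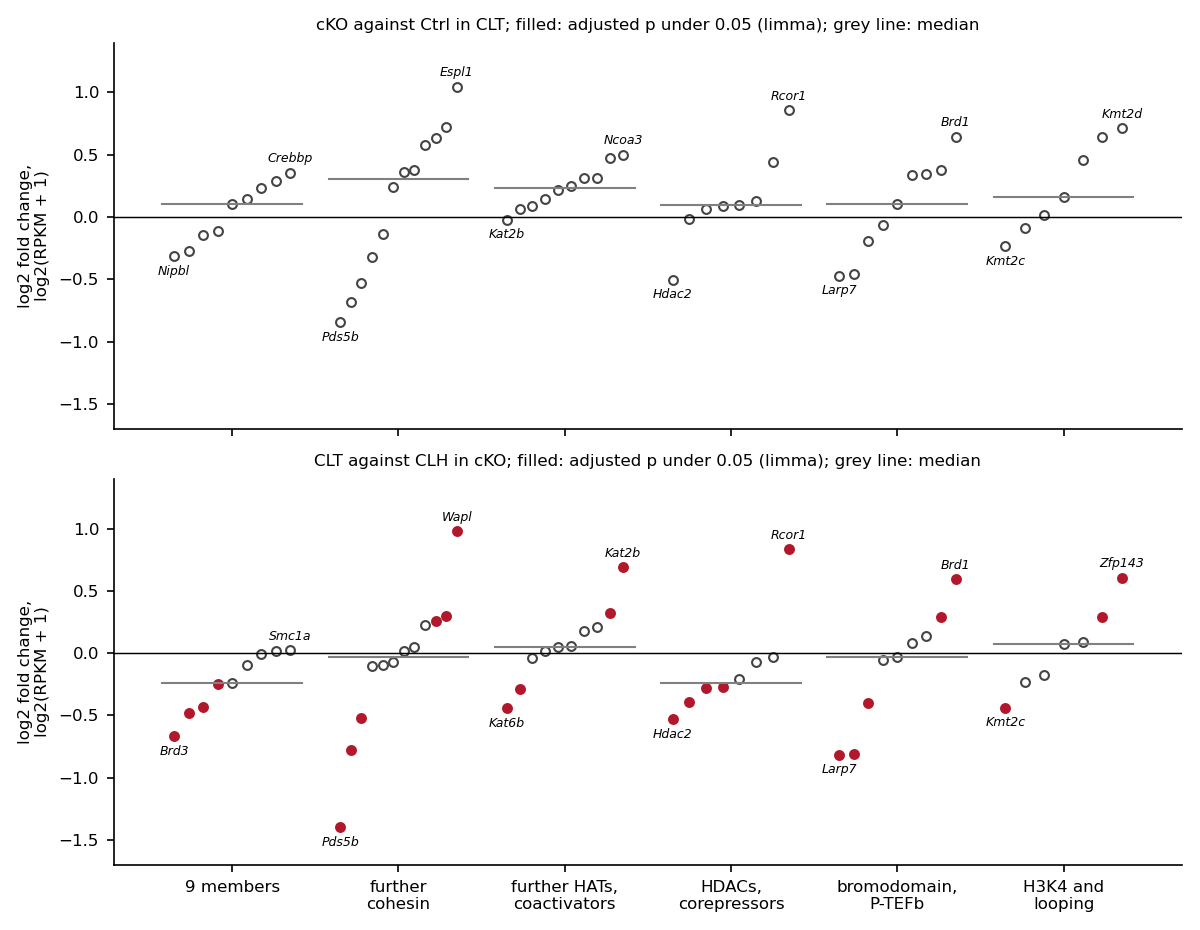
Log2 fold changes on log2(RPKM + 1) are plotted for the 9 genes and the 5 further lists (x axis) for cKO against Ctrl in CLT (top) and CLT against CLH in cKO (bottom), with filled points at a limma adjusted p under 0.05, grey lines at list medians and the extremes named. No point is filled at the top, and at the bottom 4 of the 9 genes are filled, all lower in CLT, against 10 higher and 13 lower of the 46.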

How the data were processed

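RNA-seq of CLH and CLT from *Med1* cKO and Ctrl mice was used, with samples grouped by their labels. Per the labels and the paper's methods, the authors checked reads with FastQC 0.72 and used the read trimmer Trim Galore 0.4.3.1. They aligned reads to mm10 with STAR 2.6.0b-1, counted them per gene with featureCounts 1.6.3 and compared groups with DESeq2. RPKM per gene and library were deposited. Annotation, strand setting and the total behind the RPKM are not given in the sources used here. When gene length was multiplied back in, 100.0% of checked values came out as whole reads (tolerance 0.1), for library totals of 26590000 to 34420000. Over the 9 genes, the counting error (SD) of a log2 difference between 2 libraries of a group had a median of 0.035 to 0.044, and the differences found had medians of 0.04 to 0.09, and of 0.508 in Ctrl CLT. No column of per-sample values was left unused; 26 gene names on more than 1 row were not used by name.

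Testing covered genes that reached an RPKM of 1 in 2 or more of the 8 libraries, on log2(RPKM + 1), with limma 3.58.1 in R 4.3.3 (lmFit, then eBayes with trend), with Benjamini-Hochberg adjustment over the 14148 tested genes and a threshold of 0.05. Each comparison of 2 groups was fitted to its own 4 libraries, and the interaction to all 8. Because a pseudocount was added, fold changes and ratios between groups are those of RPKM + 1 and understate those of low genes. The 9 genes and the lists were chosen with earlier results of these data known. Named were all 9 genes, list genes past the threshold in a comparison or otherwise the highest and lowest of a list in CLT, genes called without either Ctrl CLT library, and the 5 genes most like the mean of the set. *Esco2* and *Sgo1* were named outside this rule. The fits were also run on simulated data in which all groups had the same spread, unlike the Ctrl CLT pair here. That run therefore says nothing on how the fits behave with the Ctrl CLT spread. Alternatives were voom on the recovered reads, each library left out, other pseudocounts (0.1 and 0.5), quantile normalization or median-of-ratios scaling, a filter on mean RPKM or none, eBayes without trend or with its robust option, the replicate number as a block, and a single fit of all libraries. Gene positions and shared exon bases came from GENCODE M21, start sites from RefSeq. The ChIP-seq and arrays of the study were not analysed here. A result for 1 list gene that the rule for named genes covers is not reported here.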

Additional observations from a re-analysis of the deposited data

Results flagged for a closer look

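*Smc1a* and *Brd2* were the genes of the set whose cKO and Ctrl libraries were ordered one way in CLH and the opposite way in CLT, without overlap in either region. Of all tested genes, 38.7% did not overlap in CLH and 72.2% in CLT. The share ordered oppositely was not computed, so this ordering is not a result about these genes. The cKO effect on *Smc1a* was -0.07 on the log2 scale in CLH and 0.29 in CLT, a difference of 0.358 ± 0.139 (limma interaction, adjusted p = 0.12). For *Brd2* the effect was 0.10 in CLH and -0.12 in CLT, a difference of -0.218 ± 0.106 (adjusted p = 0.18). Neither difference passed the threshold. Without Ctrl CLT library 2 that of *Smc1a* did (adjusted p = 0.013), and over its alternatives the adjusted p ran from 0.013 to 0.31, while that of *Brd2* ran from 0.085 to 0.43. Groups of 2 libraries are too small for a check of single outlying libraries.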

How the results depend on the processing

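Of 702 values of the 9 genes under alternatives, 644 kept their direction and their side of the threshold, 28 changed sign (24 of these with a library left out), 22 passed and 8 no longer passed. Each group had 2 libraries, so single calls rest on little replication, and differences within the spread of the Ctrl CLT pair could not be detected. The causes of the changes below were not tested, beyond the fewer libraries or genes that some settings use.

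Of the 9 genes, 0 were called in cKO against Ctrl in CLT, and with a library left out 0 to 4. The same range was 0 to 3 for the interaction and 0 to 6 for CLT against CLH in Ctrl. For CLT against CLH in cKO, 4 were called, 2 with all 8 libraries in 1 fit, and the median log2 fold change of the 9 moved from -0.236 to -0.036 with median-of-ratios scaling and -0.117 with quantile normalization. The median in CLH ranged from -0.037 to 0.028 with a library left out. Over all tested genes, 248 were called in cKO against Ctrl in CLT, 3 with no filter, 18 with voom, 6183 with all 8 libraries in 1 fit, and 11 to 9838 with a library left out. In CLH 0 were called, 4 with robust eBayes. The interaction had 2494 calls, and 198 to 8932 with a library left out. In CLT against CLH in Ctrl, 1 gene was called, 2 with a pseudocount of 0.1, with 0.5, with quantile normalization or with a filter on the mean, 0 with no filter or voom, 837 with all 8 libraries in 1 fit, and 0 to 7537 with a library left out.

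With a library left out, the cKO against Ctrl difference in CLT ranged on the log2 scale from -0.451 to 0.162 for *Brd3*, -0.648 to 0.018 for *Nipbl*, -0.590 to 0.040 for *Smc3*, -0.065 to 0.525 for *Rad21* and -0.108 to 0.400 for *Ctcf*. In CLH it ranged from -0.026 to 0.063 for *Ep300*, -0.031 to 0.251 for *Crebbp*, -0.015 to 0.030 for *Brd3*, -0.115 to 0.043 for *Nipbl* and -0.140 to 0.012 for *Rad21*, and *Brd3* was at -0.007 with quantile normalization. The interaction ranged from -0.003 to 0.169 for *Ep300*, -0.459 to 0.154 for *Brd3*, -0.612 to 0.054 for *Nipbl*, -0.475 to 0.155 for *Smc3*, -0.001 to 0.589 for *Rad21* and -0.075 to 0.433 for *Ctcf*. CLT against CLH ranged from -0.290 to 0.376 for *Nipbl* in Ctrl, and in cKO from -0.031 to 0.059 for *Crebbp*, -0.025 to 0.069 for *Smc1a* and -0.029 to 0.009 for *Rad21*. In that last comparison *Smc1a* was at -0.040 with quantile normalization, and with median-of-ratios scaling *Rad21* was at 0.210 and *Ctcf* at 0.118.

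The libraries share replicate numbers, and no source used here ties a number to either of the 2 litters. With the number as a replicate block, calls over all tested genes went from 248 to 1744 for cKO against Ctrl in CLT, from 2494 to 1448 for the interaction and from 1 to 5 for CLT against CLH in Ctrl. Differences between same-numbered libraries correlated over genes at -0.192 in CLT, 0.066 in CLH, 0.195 in Ctrl and 0.307 in cKO. Among the 9 genes the block added the call of *Nipbl* between CLT and CLH in cKO (adjusted p = 0.015) and changed no other.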
